A study of Mus musculus with 6 samples.

Results

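The H19-Igf2 domain and the neighbouring Kcnq1 domain are imprinted gene clusters side by side near the distal end of mouse chromosome 7. They are described here as the interval chr7:149750001-150660000 of the mm9 build, 910 kb long, with 5 named members: H19, Igf2, Kcnq1, Kcnq1ot1 and Cdkn1c. The interval was chosen by position and by no measured value. It held 8295 of the 20807838 nuclear cytosines listed for 5-hydroxymethylcytosine (5hmC) and 2388 of the 6246187 listed for 5-formylcytosine (5fC). In bins of 5 kb it made up 182 of the 497185 nuclear bins with a listed 5hmC cytosine. H19 was taken as chr7:149761001-149765000, its upstream control region as chr7:149765001-149769000, Igf2 as chr7:149836001-149853000, Kcnq1 as chr7:150292001-150613000 and Cdkn1c as chr7:150640001-150650000, which is 5 kb either side of its approximate position. These limits are round numbers and no mm9 gene annotation was used here, so exons and introns were not told apart.

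The DNA came from E14, an established line of mouse embryonic stem (ES) cells, grown undifferentiated on gelatin in medium with serum and the cytokine LIF, and the labels name no genetic change and no other treatment. In Pvu-Seal-seq the enzyme PvuRts1I cleaves DNA near modified cytosines, and the resulting ends are captured and sequenced to point to the modified base. The labels list 6 libraries: passage 14 cells gave 2 technical replicates for each mark, and a separate passage 12 culture gave 2 more for 5hmC alone. Each table gives a single number of reads for a cytosine, summed over libraries and never below 2. There is thus no replicate error for any value, and no test between regions or marks could be run. All intervals given are 95% intervals (Wilson for shares, exact Poisson for counts) and cover counting error only, since neighbouring cytosines are not independent and the reads carry no molecular identifiers. A cytosine absent from a list may still carry the mark, and maternal and paternal alleles are not separated in the counts.

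Imprinted genes are expressed from the maternal or the paternal copy according to DNA methylation set in the germ line. H19 makes a non-coding RNA from the maternal copy and Igf2 a growth factor from the paternal copy, and both depend on a control region upstream of H19 that is methylated on the paternal chromosome. Kcnq1 encodes a potassium channel subunit. Kcnq1ot1 is a long antisense RNA that starts inside Kcnq1, at a control region methylated on the maternal chromosome, and is linked to silencing in cis of genes that include Cdkn1c, which encodes an inhibitor of cyclin-dependent kinases. 5hmC and 5fC are successive products of the oxidation of 5-methylcytosine by the TET enzymes, and therefore mark DNA that was methylated before.

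RefSeq promoter sequences (250 bases before to 50 after a start, from the GRCm38.p6 assembly) matched 2 of the 5 members, Igf2 with 4 promoters and Kcnq1ot1 with 1. They were placed in mm9 by their letters: a listed cytosine fits where its base, next base and strand are those of the sequence. Placed alone, only the promoter of Th, the gene of tyrosine hydroxylase between Igf2 and Kcnq1, met the rule, with 27 of 27 listed cytosines fitting and at most 6 at any other place. In a step chosen after the data were seen, the 26 promoter and microRNA hairpin sequences of the interval were placed together with their RefSeq spacing. All 106 of 106 listed cytosines then fitted, against 21 at the next best start. The 106 include the 27 of Th and count some cytosines repeatedly, since sequences overlap. Gm33148 promoters 1 to 3 hold the same 2, and both Gm33663 promoters the same 3. The Kcnq1ot1 promoter held only 2 listed cytosines, both fitting, so its place rests on this spacing. The same holds for Igf2 promoter 2 and Tssc4, with 0 listed cytosines inside, and for Ascl2 and Cd81, with 1 each: their places assume that mm9 has the spacing of GRCm38.p6, and so do the counts of listed cytosines given for them.

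The sequences below are shown because Igf2 promoters differ in how many of their CG are listed, because the Kcnq1ot1 promoter starts the antisense RNA, and because Th is the densely listed contrast. Each is the reference sequence, not one read from E14, written 5′ to 3′ along its gene, which is on the minus strand in every case. A capital C is a cytosine listed for 5hmC on the printed strand and a capital G marks one on the opposite strand. Igf2 promoter 2 lay at chr7:149844660-149844959, Igf2 promoter 3 at chr7:149847127-149847426, the Kcnq1ot1 promoter at chr7:150482403-150482702 and the Th promoter at chr7:150085851-150086150.
Igf2 promoter 2: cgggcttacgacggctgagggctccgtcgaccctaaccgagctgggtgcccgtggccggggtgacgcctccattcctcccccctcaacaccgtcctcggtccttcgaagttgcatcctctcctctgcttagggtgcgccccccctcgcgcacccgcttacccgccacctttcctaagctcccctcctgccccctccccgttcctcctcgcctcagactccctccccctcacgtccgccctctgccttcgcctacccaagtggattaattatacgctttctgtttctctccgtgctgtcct
Igf2 promoter 3: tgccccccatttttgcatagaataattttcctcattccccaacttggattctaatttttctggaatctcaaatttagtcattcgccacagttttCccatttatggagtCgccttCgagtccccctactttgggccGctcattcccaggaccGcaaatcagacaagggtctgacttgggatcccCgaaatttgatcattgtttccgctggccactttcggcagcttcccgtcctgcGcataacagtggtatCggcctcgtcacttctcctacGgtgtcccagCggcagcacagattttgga
Kcnq1ot1 promoter: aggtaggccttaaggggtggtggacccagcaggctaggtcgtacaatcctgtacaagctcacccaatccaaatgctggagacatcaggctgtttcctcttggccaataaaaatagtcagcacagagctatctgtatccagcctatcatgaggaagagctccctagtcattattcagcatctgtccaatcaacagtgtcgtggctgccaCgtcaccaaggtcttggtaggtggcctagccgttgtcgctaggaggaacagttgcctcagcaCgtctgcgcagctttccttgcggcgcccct
Th promoter: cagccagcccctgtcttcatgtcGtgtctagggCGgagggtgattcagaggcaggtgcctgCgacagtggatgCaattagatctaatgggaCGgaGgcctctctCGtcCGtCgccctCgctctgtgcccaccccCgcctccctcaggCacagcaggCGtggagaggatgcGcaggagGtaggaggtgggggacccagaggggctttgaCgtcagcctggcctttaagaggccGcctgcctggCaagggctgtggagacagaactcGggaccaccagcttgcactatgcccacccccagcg

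The promoters with the most CG in the interval were almost empty of both marks, whereas that of Th was not. Igf2 promoter 2 has 24 CG, which is 48 cytosines over both strands, and 0 of them were listed for 5hmC or 5fC. Igf2 promoter 3 has 14 CG, and 9 of its 28 CG cytosines were listed for 5hmC (32.1%, 17.9 to 50.7%) with 43 reads in all and a median of 5, and 1 for 5fC with 5 reads. Th has 15 CG, and 19 of 30 CG cytosines were listed for 5hmC (63.3%, 45.5 to 78.1%) with 178 reads, and 10 for 5fC with 110 reads. Th met the placement rule alone because it held many listed cytosines, so its high count is a description and no evidence of a difference from the others.

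At the start of Kcnq1ot1, 2 of 18 CG cytosines were listed for 5hmC (11.1%, 3.10 to 32.8%) with 17 reads. Igf2 promoter 1 (chr7:149843352-149843651, 7 CG) had 3 of 14 listed with 12 reads, and Igf2 promoter 4 (chr7:149852672-149852971, 2 CG) had all 4 of its CG cytosines listed with 39 reads. Ascl2, which encodes a transcription factor of the placenta and intestinal stem cells, had 1 of 46 CG cytosines listed for 5hmC with 5 reads. Cd81, a tetraspanin gene, had 1 of 46 with 3 reads, and Tssc4 had 0 of 46. With Igf2 promoter 2, these have the most CG of the jointly placed promoters, and they were picked after the values were seen. Some placed promoters with fewer CG were listed more fully, such as Trpm5 with 5 of 10 CG cytosines and Gm33148 promoter 4 with 6 of 16. Others were not, such as R74862 with 0 of 14. Cytosines not cut or not captured cannot be told apart from unmodified ones here.

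**Figure D1:**
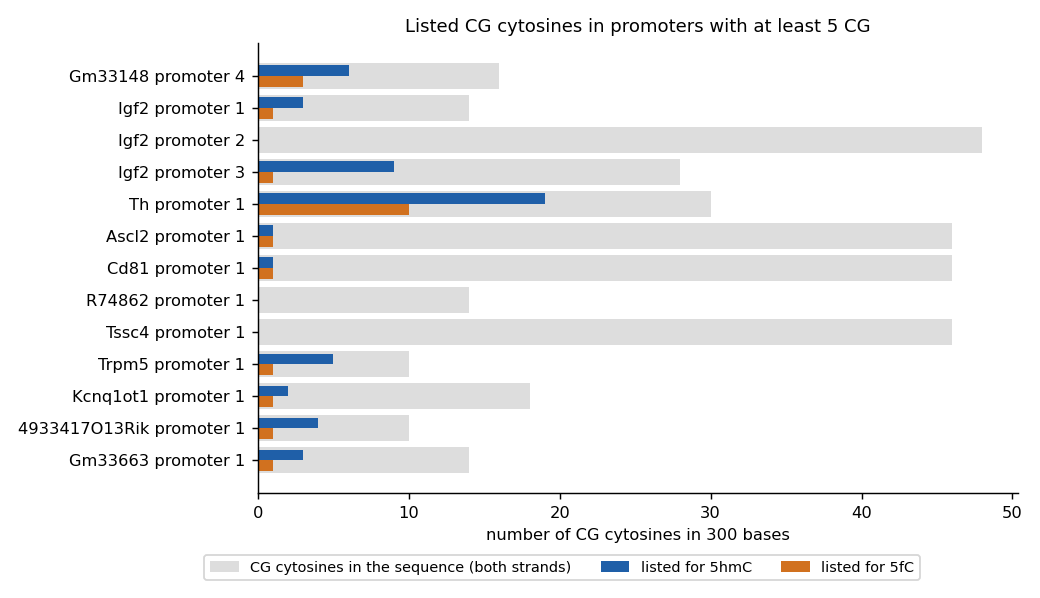
CG cytosines in the 300 bases of each placed promoter with at least 5 CG, in order along the interval. Grey bars give all CG cytosines of the sequence on both strands, blue bars those listed for 5hmC and orange bars those listed for 5fC. Th has 19 and 10 of 30 listed, Igf2 promoter 2 has 0 of 48. A copy of the Gm33663 promoter moved by 1 base is left out.

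Over the whole interval the density of both marks was close to that of the nuclear genome. It had 9.12 listed 5hmC cytosines per kb (8.92 to 9.31), 1.09 times the 8.37 per kb of the genome. Listed 5fC cytosines numbered 2.62 per kb (2.52 to 2.73), 1.04 times the genome. Densities without a minimum of reads took as genome the 497185 nuclear bins with a listed 5hmC cytosine, leaving out empty bins. Counting only cytosines with at least 10 reads, the 5hmC density was 0.996 times the genome. That genome density counted only bins still holding such a cytosine, while the interval kept its full 910 kb, which lowers the value. Of the CG cytosines listed for 5hmC, 50.3% (49.1 to 51.6%) in the interval reached 10 reads, against 50.8% genome-wide. Whether cytosines with few reads make up the excess was not tested. The median bin held 503 5hmC reads and 114.5 5fC reads, against 308 and 69 over all nuclear bins. Of the 182 bins, 69 (37.9%) had at least 2 times the genome-wide median of 5hmC reads, where 31.8% of all nuclear bins did, and 42 (23.1%) had at most 0.5 times the median, where 34.2% of all bins did. Bins with no listed 5fC numbered 21 (11.5%), against 16.4% genome-wide. The 5th to 95th percentiles ran from 52.2 to 1373 5hmC reads per bin in the interval and from 21 to 1714 genome-wide.

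The profile along the interval was uneven. Reads were high at its start around H19, at Igf2, and over the second part of Kcnq1 up to Cdkn1c, and low over most of the stretch just past Igf2. The 5 bins with the most 5hmC reads were chr7:150550001-150555000 in Kcnq1 with 1920 reads at 108 cytosines, chr7:150560001-150565000 in Kcnq1 with 1830 at 130, chr7:149760001-149765000 over H19 with 1793 at 171, its neighbour chr7:149755001-149760000 with 1575 at 102, and chr7:150630001-150635000 between Kcnq1 and Cdkn1c with 1546 at 135. These bins lay between the 93.1 and 96.7 percentile of all nuclear bins. The bins with the fewest listed cytosines all lay between Igf2 and Kcnq1: chr7:149960001-149965000 had 2 cytosines with 5 reads, chr7:149965001-149970000 had 2 with 27, and chr7:149935001-149940000 had 3 with 13, each without listed 5fC. The number of CG in the bins was not counted, since no mm9 sequence was used here, and its part in the differences between bins was not tested.

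**Figure D2:**
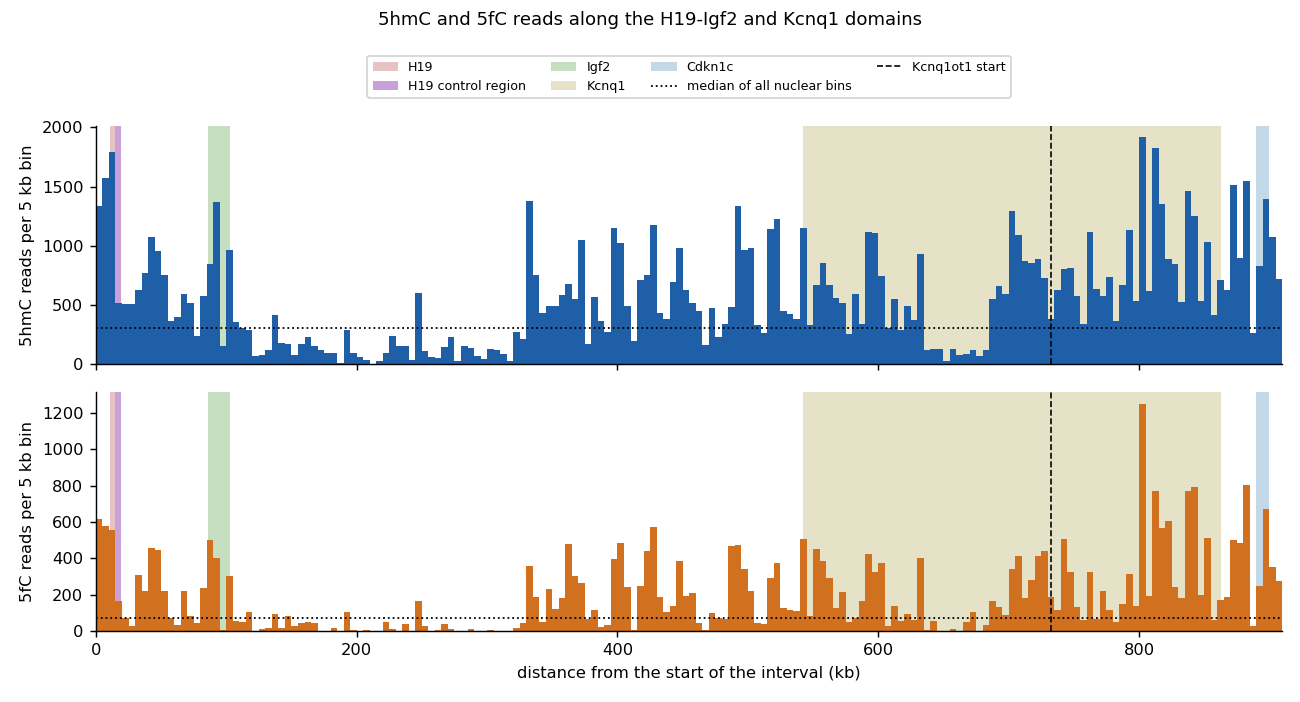
Summed reads of 5hmC (top) and 5fC (bottom) in 5 kb bins against the distance from the start of the interval, with the elements shaded, the placed Kcnq1ot1 start dashed and the median of all nuclear bins dotted (308 and 69 reads). Both marks are high at H19 and towards the end of Kcnq1 and low past Igf2, and the highest bin of both marks is the one with 1920 5hmC and 1253 5fC reads.

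H19 had the densest 5hmC of the named elements. Its 4 kb held 156 listed 5hmC cytosines with 1649 reads, which is 39.0 cytosines per kb (33.1 to 45.6) or 4.66 times the genome, and 41 5fC cytosines with 538 reads, or 4.08 times the genome. The reads per CG cytosine were ordinary, with a median of 11 for 5hmC against 10 genome-wide. The cytosine with the most 5hmC reads in H19, position 149762402 on the plus strand, had 41 reads and 5 5fC reads, and the one with the most 5fC reads, position 149761678, had 37 and 14 5hmC reads. The hairpin of Mir675, a microRNA cut from the H19 transcript, lay at chr7:149762969-149763052 and held 4 listed CG cytosines with 41 5hmC reads and no listed 5fC. The 11 kb before H19, on its downstream side, also had 18.6 cytosines per kb (16.2 to 21.4), 2.23 times the genome.

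The control region next to H19 was listed less densely and with fewer reads per cytosine. Its 66 5hmC cytosines carried 504 reads, which gives 16.5 per kb (12.8 to 21.0), 1.97 times the genome, but its reads per kb were only 1.19 times the genome. The median CG cytosine had 6 5hmC reads against 11 in H19, and 35.1% of its CG cytosines (24.0 to 48.1%) reached 10 reads, against 50.8% genome-wide. The most read cytosine, position 149765231 on the minus strand, had 26 reads and was not listed for 5fC.

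The 5fC of the control region lay mostly in a short part of it. In windows of 500 bases, chr7:149765501-149767000 held 27 listed 5hmC cytosines and 0 for 5fC. The window chr7:149767001-149767500 that followed held 7 listed 5fC cytosines with 104 of the 160 5fC reads of the region, among them position 149767291 with 33 5fC and 25 5hmC reads. From 149769001 to 149771500, just past the region, there were 2 listed 5hmC cytosines with 15 reads. Over the region the ratio of 5fC to 5hmC reads was 0.820 times the genome-wide 0.387. With at least 10 reads per cytosine it was 1.05 times, so its direction depends on the cytosines with few reads.

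**Figure D3:**
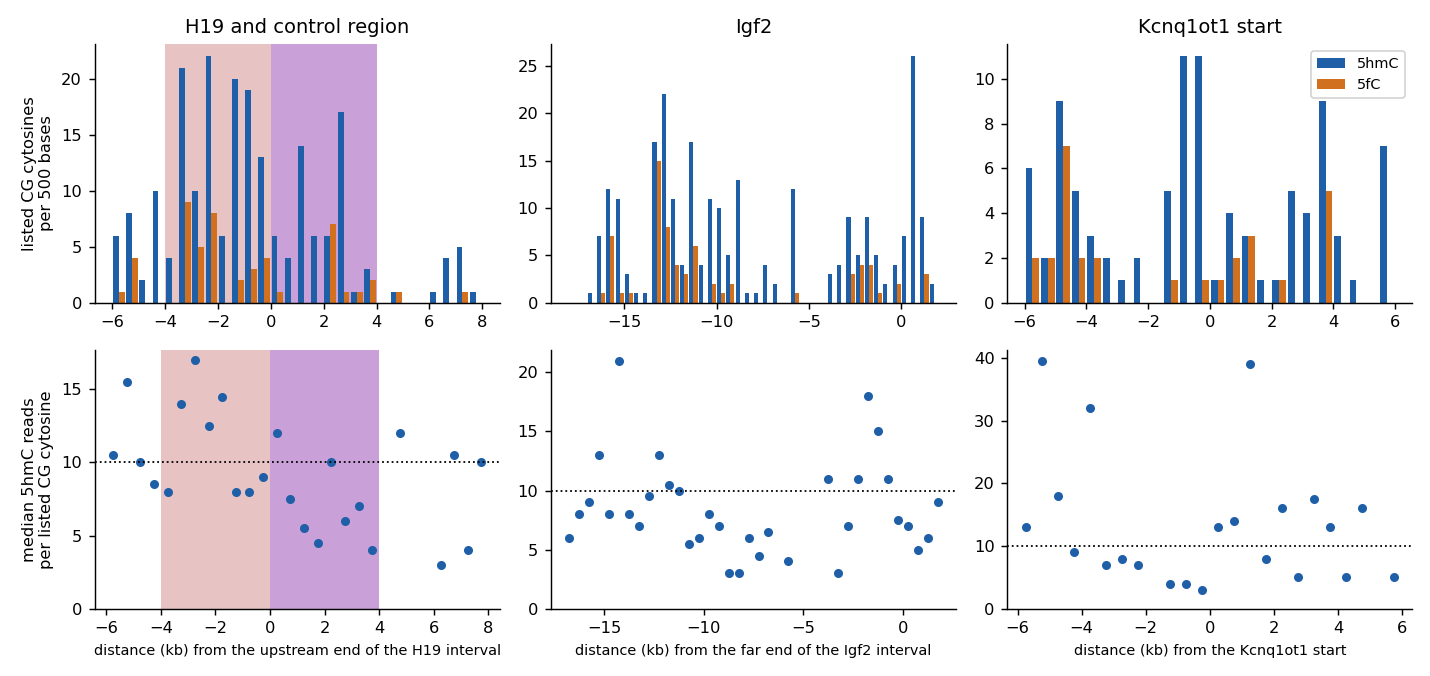
Windows of 500 bases around H19 and its control region (shaded), Igf2 and the placed Kcnq1ot1 start. The top row counts listed CG cytosines for 5hmC (blue) and 5fC (orange), and the bottom row gives the median 5hmC reads per listed CG cytosine, with the genome-wide median of 10 dotted. The windows next to the Kcnq1ot1 start on its transcribed side (negative distances) have many listed CG cytosines at medians of 3 and 4 reads, and 1 listed for 5fC.

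Igf2 was dense in both marks, but unevenly. It held 303 listed 5hmC cytosines with 2975 reads, or 17.8 per kb (15.9 to 19.9) and 2.13 times the genome, and 93 listed for 5fC with 1165 reads, 2.18 times the genome. Reads per CG cytosine were low, with a median of 7 and 41.7% reaching 10 reads (35.3 to 48.4%), against 50.8% genome-wide. The downstream part of the gene carried most of the reads. The bins chr7:149835001-149840000 and chr7:149840001-149845000 had 843 and 1374 5hmC reads and 502 and 403 5fC reads. The next bin, chr7:149845001-149850000, which holds promoter 3, had 151 5hmC reads at 31 cytosines and 1 listed 5fC cytosine with 5 reads, while the last bin of the gene rose again to 968 and 303 reads.

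Within Igf2, the cytosine with the most 5hmC reads was position 149840842 on the minus strand, with 61 reads and 7 for 5fC. It lies in the placed hairpin of Mir483, a microRNA inside Igf2 (chr7:149840829-149840901), whose 3 listed CG cytosines carried 117 5hmC reads. The deepest 5fC cytosine, position 149839645, had 75 5fC and 46 5hmC reads. Around promoter 2, within 1 kb of the start, there were 20 listed 5hmC cytosines with 106 reads, around promoter 3 there were 16 with 72, and around promoter 1 there were 57 with 490. Just upstream of the gene, the window chr7:149853501-149854000 held 26 listed CG cytosines with a median of 5 5hmC reads and no 5fC.

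Kcnq1 filled 65 of the bins, of which 33 were high (50.8%, against 31.8% of all nuclear bins) and 10 low (15.4%, against 34.2%). It held 3253 listed 5hmC cytosines with 42321 reads, 10.1 per kb (9.79 to 10.5) or 1.21 times the genome, and 1040 listed for 5fC with 15752 reads. CG cytosines had a median of 10 5hmC reads, as in the genome. All 10 low bins formed a single run, chr7:150385001-150435000, 50 kb long, with 128 listed 5hmC cytosines, 1011 reads and 17 listed 5fC cytosines. The cytosine with the most 5hmC reads in Kcnq1 was outside CG: the CA at position 150526717 on the plus strand had 122 reads, second in the whole interval, but 10 5fC reads. The deepest 5fC cytosine of the gene, position 150554429, had 99 5fC and 60 5hmC reads and lies in the bin with the most reads of both marks.

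Around the placed Kcnq1ot1 start at position 150482452, 5hmC was listed at many cytosines with very few reads each. From 150481452 to 150482451, the first kb of the transcript, there were 26 listed 5hmC cytosines, of which 22 were CG, with 91 reads in all and 1 listed 5fC cytosine with 5 reads. The CG medians of its windows of 500 bases were 4 and 3 reads. The single window before the start, 150482452 to 150482951, had 1 listed cytosine of each mark, with 13 and 15 reads. In the other windows within 6 kb the medians ran from 4 to 39.5 reads, with a middle value of 13. Within 1 kb on both sides of the start there were 33 5hmC cytosines with 165 reads, 82.5 reads per kb, where the same span around Th had 45 with 490 reads, 245 per kb. Within 500 bases on both sides the values were 48 and 369 reads per kb. Th met the placement rule because it held many listed cytosines, so it is a contrast chosen for being high. Other placed promoters lay on both sides of Kcnq1ot1. Within 1 kb, Tssc4 had 19.5, Cd81 23.5, Igf2 promoter 3 36 and Igf2 promoter 1 245 5hmC reads per kb. Their CG medians were 4, 3.5, 4 and 5 reads, against 4 at Kcnq1ot1. These are at the low end of the placed promoters: the rest ran from 4 at Igf2 promoter 2 to 14 at the Gm33663 promoters. Only Cd81 had a lower median than Kcnq1ot1.

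Cdkn1c lay in a stretch that was rich in both marks, mostly at the far end of the 10 kb taken. Its 10 kb had 160 listed 5hmC cytosines with 2228 reads, 16.0 per kb (13.6 to 18.7) or 1.91 times the genome, and 52 listed 5fC cytosines with 922 reads, 2.07 times the genome. Its bins had 829 and 1399 5hmC reads. The last 2 kb, chr7:150648001-150650000, held 1205 of the 2228 5hmC reads and 653 of the 922 5fC reads. At the approximate position of the gene, chr7:150644001-150646000 held 429 and 115 reads, with a median of 7 5hmC reads per CG cytosine. A single cytosine, position 150648182 on the minus strand, led both lists in this element, with 91 5hmC and 72 5fC reads, and its partner on the plus strand had 31 and 25. CG cytosines ranged widely, with a median of 8 5hmC reads and quartiles of 5 and 24. Of the 5fC cytosines, 84.6% (72.5 to 92.0%, 44 of 52) were also listed for 5hmC, against 76.3% genome-wide, which lies inside the interval.

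**Figure D4:**
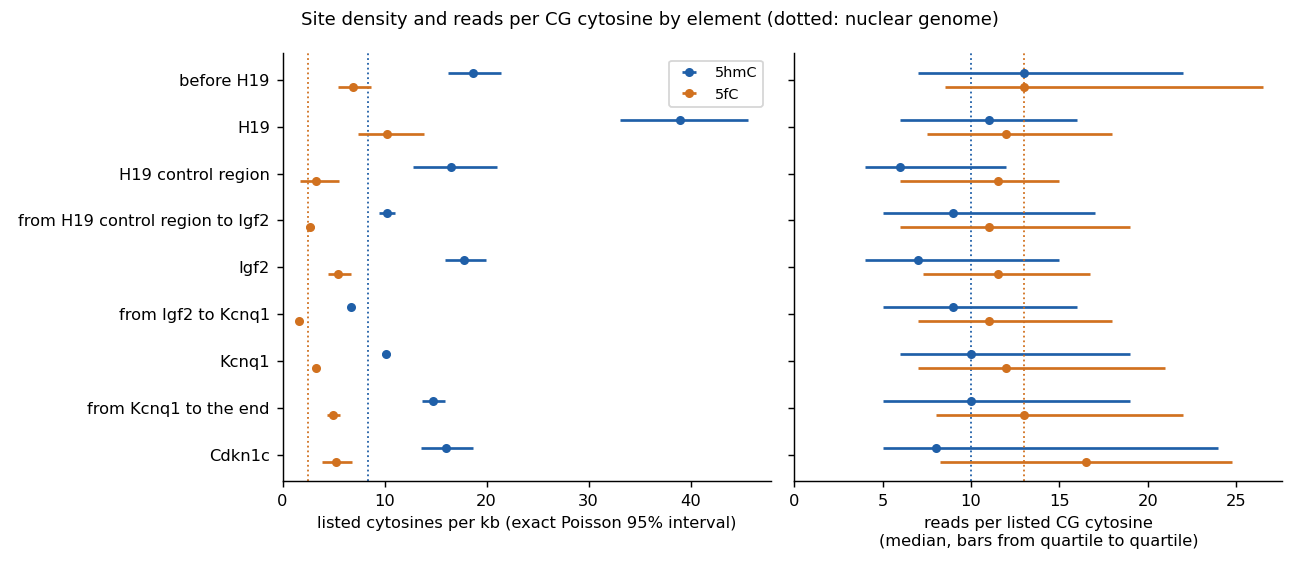
Listed cytosines per kb (left, bars are exact Poisson 95% intervals) and reads per listed CG cytosine (right, median with quartiles) for 5hmC in blue and 5fC in orange, by element. Dotted lines give the nuclear genome. H19 stands highest in density at 39.0 per kb for 5hmC, and the control region has the lowest median of 5hmC reads at 6.

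The stretch from Igf2 to Kcnq1 was sparser in both marks than the genome and than the named elements. It had 6.68 listed 5hmC cytosines per kb (6.44 to 6.93), 0.798 times the genome, and 1.62 5fC cytosines per kb (1.51 to 1.75), 0.646 times. Of its 89 bins, 31 were low (34.8%, against 34.2% of all nuclear bins), 19 were high (21.3%, against 31.8%) and 17 had no listed 5fC (19.1%, against 16.4%). Low bins were thus about as frequent as elsewhere in the genome. Most of those in this stretch lay in runs. Runs were not counted genome-wide, so whether they are more common here was not tested. Of the 7 runs of at least 3 low bins in the interval, 6 lay between 149870001 and 150070000. The last and longest of these, chr7:150025001-150070000, spans 45 kb with 100 listed 5hmC cytosines, and 7 of its 9 bins had no 5fC. Beyond it, the bin chr7:150080001-150085000 had 126 listed cytosines and 1377 reads, and the next bin, with the Th promoter, had 752. From the end of Kcnq1 to the end of the interval the density was 14.8 per kb (13.7 to 15.9), with 9 of 10 bins high (90.0%, against 31.8% of all nuclear bins).

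Relative to 5hmC, 5fC reads were somewhat fewer than in the genome. The ratio of 5fC to 5hmC reads over the interval was 0.890 times the genome-wide ratio. It was 0.770 times between Igf2 and Kcnq1 and 0.797 times between the control region and Igf2, whereas H19 had 0.842, Kcnq1 0.961, Igf2 1.01 and Cdkn1c 1.07 times. Of the 104 bins with at least the genome-wide median reads of both marks, 10 (9.62%) reached 1.5 times the genome-wide ratio, where 12.1% of all such nuclear bins did, and 25 (24%) fell to 1/1.5 of it or less, where 22.9% did. The bins thus spread about as bins elsewhere, with a median of 0.870 and a 5th to 95th percentile of 0.491 to 1.63, against 0.941 and 0.450 to 1.77 genome-wide.

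Among these 104 bins, the highest ratios were 2.5 times in chr7:150235001-150240000, 1.82 times in chr7:150110001-150115000 and 1.75 times in chr7:150570001-150575000, the last within Kcnq1. In the first of these, 2 cytosines held most of the 469 5fC reads: position 150235467 with 196 5fC and 105 5hmC reads and position 150237420 with 107 and 45, the most and the third most 5fC reads of the interval. The promoter of Cd81 was placed in the same bin. The second cytosine by 5fC reads, position 150117832 with 169 5fC and 66 5hmC reads, lay outside these bins. Among the same 104 bins, the lowest ratios were 0.359 times in chr7:149770001-149775000, next to the H19 control region, 0.376 times in chr7:150445001-150450000 and 0.395 times in chr7:150525001-150530000, both within Kcnq1. The minimum on 5fC reads itself leaves out bins with low ratios: chr7:149775001-149780000, the neighbour of the lowest, had 510 5hmC and 24 5fC reads, 0.122 times, and was picked after its values were seen. The bin chr7:150525001-150530000 holds the deep CA cytosine described above. By 5hmC reads the first and the third cytosine of the interval were CG, position 150272192 with 141 reads and 67 for 5fC, and position 150630668 with 112 and 28. No cytosine of the interval exceeded 1000 reads, but only 172 of 20807838 cytosines for 5hmC and 169 of 6246187 for 5fC did genome-wide. With so few, their absence here says little about the interval. Above 64 reads were 0.772% of its 5hmC cytosines, against 0.993% genome-wide, and 0.796% of its 5fC cytosines, against 1.37%.

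CG made up 77.9% of the 5hmC cytosines (77.0 to 78.7%) and 76.7% of the 5fC cytosines (75.0 to 78.4%), against 76.5% and 75.2% genome-wide. The share was 86.4% in the control region (76.1 to 92.7%) and 69.6% in Igf2 (64.2 to 74.5%). Of the 1836 5hmC cytosines outside CG, 68.4% (66.2 to 70.5%) had a listed CG 20 to 23 bases downstream, against 62.2% genome-wide. Downstream was read along the strand of the cytosine, and the CG could be listed on either strand. In H19 37 of 41 had such a CG (90.2%, 77.5 to 96.1%). Listed 5hmC cytosines were 4.66 times as dense in H19 as in the genome, and the part of density in this share was not tested. Of 4649 CG dyads with 5hmC, 38.9% (37.5 to 40.3%) were listed on both strands, close to the 39.6% of the genome. The control region had 11 of 46 on both strands (23.9%, 13.9 to 37.9%) and Igf2 31.9% (25.2 to 39.4%), while H19 had 38 of 77 (49.4%, 38.5 to 60.3%) and Kcnq1 42.2% (39.9 to 44.5%). The elements with few reads per CG cytosine were thus those with fewer dyads on both strands, and the part of read number in this was not tested.

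Most 5fC cytosines were also in the 5hmC list, but not the reverse. Of the 2388 5fC cytosines, 1784 (74.7%, 72.9 to 76.4%) were also listed for 5hmC, against 76.3% genome-wide, whereas 21.5% of the 5hmC cytosines were listed for 5fC, against 22.9% genome-wide. The shared cytosines had a median of 17 5hmC reads and the others 7, the same as genome-wide. Among the 585 dyads listed on 1 strand for each mark, 457 (78.1%, 74.6 to 81.3%) had both marks on the same strand. That share was not counted genome-wide, so whether it is particular to the interval was not tested. The sources used here do not give how the libraries told 5fC from 5hmC, and the part of carry-over between the marks was not tested.

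To see how often many CG cytosines lie together at low read number, the genome was divided in tiles of 2 kb, a step chosen after the data were seen. Tiles with at least 20 listed CG cytosines numbered 106 in the interval and 294070 genome-wide, with medians over tiles of 10.5 and 11 reads per CG cytosine. In the interval 3 tiles (2.83%) had a median of at most 6 reads, as did 2.83% of all nuclear tiles. Under the other tilings tried the share in the interval was higher than over the genome: 9 of 118 (7.63%, against 2.83%) with tiles moved by 1 kb, 15 of 197 (7.61%, against 5.27%) with at least 15 CG cytosines and 2 of 41 (4.88%, against 1.15%) with at least 30. Whether such tiles were more frequent here therefore depended on how tiles were laid, and the counts are small. The 3 tiles of the first tiling lay at or beside named elements. The share of all tiles of the interval that lie at such elements was not counted, so no link to them is drawn. With tiles moved by 1 kb and with at least 15 CG cytosines, some low tiles lay elsewhere, such as between Igf2 and Kcnq1. The tile chr7:150480001-150482000, at the Kcnq1ot1 start, had 20 listed CG cytosines with a median of 4 and at most 11 reads, and 0.0942% of all tiles had a median as low. Only 1 of its 19 dyads was listed on both strands. The tile chr7:149852001-149854000 at the upstream end of Igf2 had a median of 5 over 39 CG cytosines (0.669% of tiles as low), with 13 of 26 dyads on both strands, and chr7:149766001-149768000 in the H19 control region had 6 over 43 (2.83%), with 9 of 34.

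**Figure D5:**
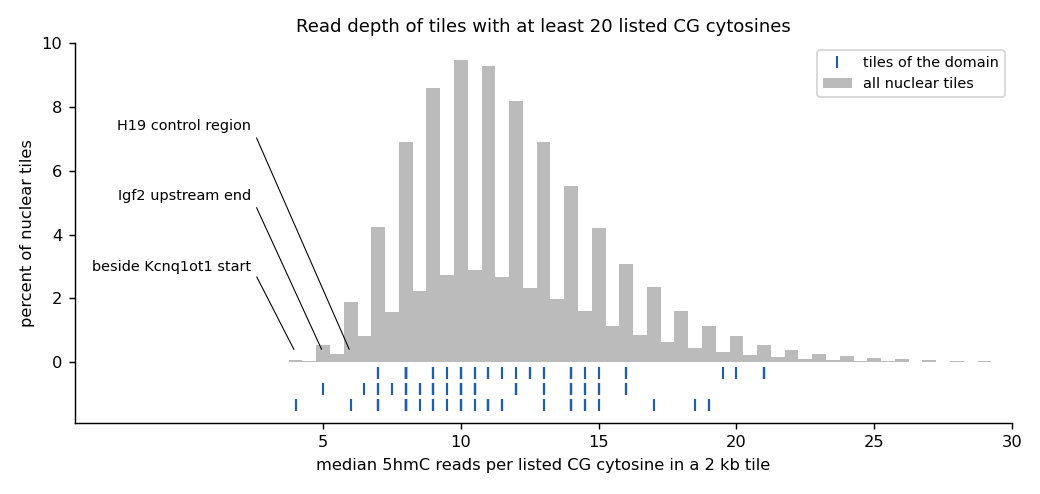
Distribution of the median 5hmC reads per listed CG cytosine over all 294070 nuclear 2 kb tiles with at least 20 listed CG cytosines (grey, percent of tiles), with each of the 106 tiles of the interval as a blue tick below, in rows to separate them. The labelled tiles at 4, 5 and 6 reads lie at the low end, while most tiles of the interval lie near 10.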

How the data were processed

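Per the labels' protocols, PvuRts1I cut the genomic DNA, which was glucosylated with an azide sugar, ligated to an adapter, sheared, captured on streptavidin through biotin and amplified for the 5hmC library. Per the submitters' processing notes, CASAVA, bcl2fastq, cutadapt and Bowtie were used with mm9, with no versions. The authors deposited 1 table per mark, with raw counts of reads at each listed cytosine. The sources used here do not give how cytosines were assigned, which libraries were summed or how 5fC was separated. The labels of both 5hmC cultures name the same table, which was treated as that of passage 14.

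The tables sum to 264008048 reads for 5hmC and 102305049 for 5fC. These sums are not the sequencing depth. Reads and cytosines were summed by element and in 5 kb bins. A bin was called high at 2 times or more, and low at 0.5 times or less, the median of all nuclear bins. Ratios of 5fC to 5hmC reads were divided by the genome-wide ratio and called at 1.5-fold. Intervals are 95% Wilson or exact Poisson. No p-values are given. A sequence was placed alone with at least 8 listed cytosines fitting, at least 95% of those inside fitting and no other place with more than 0.5 times as many.

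Named are the 5 members, the 5 bins with the most 5hmC reads, the 3 with the fewest listed 5hmC cytosines, the 3 highest and 3 lowest ratios, and for each mark the 3 cytosines with the most reads in the interval and the top one of each element. Members and lists were chosen with earlier results of these data known. Joint placement, 500-base windows, runs of low bins and tiles were added after the data were seen. The counting and placement functions were tested on simulated data (20000 dyads, 30 sequences) and passed 4 of 4 checks. Python 3.11.15, numpy 2.4.6, pandas 2.3.3, scipy 1.17.1 and matplotlib 3.10.9 were used.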

Additional observations from a re-analysis of the deposited data

How the results depend on the processing

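No paired analysis was possible because libraries were summed before deposit into 1 count per cytosine and mark, and for the same reason the replicate block and leaving out each replicate were not run. The cause of each move was not tested beyond what a setting removes. The 5hmC density of the interval over the genome, 1.09, was 1.07 with at least 5 reads per cytosine. With at least 10 reads it was 0.996 (0.964 to 1.03), below 1 but with an interval that holds 1. With a minimum of reads, the genome density counted only bins still holding a cytosine, while the interval and its elements kept their full length. This lowers their densities over the genome, and its part in the moves was not tested. The ratio of 5fC to 5hmC reads of the interval, 0.890, was 0.902 for CG alone, 0.862 with at least 10 reads and 0.917 against the rest of chromosome 7, and that of the H19 control region turned from 0.820 to 1.05 with at least 10 reads. Bins of 10 kb gave 37 high and 18 low, and bins of 2 kb gave 164 and 114, since their number differs. The share of high bins stayed above the background in each of the 8 settings tried (31.9 to 40.7% against 28.9 to 32.2%). With at least 5 and at least 10 reads, the CG share of 5hmC cytosines was 84.3% and 90.8%, dyads on both strands 33.1% and 23.1%, and 5fC cytosines also listed for 5hmC 69.3% and 62.7%. With at least 10 reads the CG share of 5fC cytosines was 79.3% and its dyads on both strands 13.7%. With 500 bases either side of the start in place of 1 kb, 5hmC reads per kb were 59 at Igf2 promoter 3 (from 36), 48 at Kcnq1ot1 (from 82.5) and 369 at Th (from 245), and with 2 kb 223.5 at Th. Tiles with low medians numbered 9 when moved by 1 kb and 15 with at least 15 CG cytosines. Of the other values for the whole interval and the promoters, 22 stayed within their counting interval or, for a count of bins or tiles, within 1.5 times. For single elements 43 values did so and 6 moved without turning. With at least 10 reads the 5hmC density over the genome fell from 2.13 to 1.56 in Igf2 and from 1.91 to 1.60 in Cdkn1c. In the H19 control region it fell from 1.97 to 1.33, with an interval of 0.823 to 2.03 that reaches below 1. The change in the genome bins counted, given above, applies to these falls too. The listed cytosines hold few reads, with a median of 8 for 5hmC, so single cytosines cannot be ranked finely.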
